A study of Mus musculus with 6 samples.

Results

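RNA of calcium-binding proteins that buffer or sense calcium in neurons was examined in the granule cell layer of the dentate gyrus (DG) after loss of Bcl11b/Ctip2. The genes were given by name and comprised 3 calcium buffers (Calb1, Calb2 and Pvalb) and 6 neuronal calcium sensors (Hpca, Hpcal1, Hpcal4, Ncald, Vsnl1 and Ncs1). Each was matched by its symbol to the platform's probe annotation, and all 9 were among the 19938 genes tested. RNA came from the granule cell layer of 3 mutant and 3 control samples, cut out by laser capture microdissection and hybridized to 1 Affymetrix array each. Mutants carried Bcl11b flox/flox alleles together with tetO-Cre and CaMKIIα-tTA, a tet-off system in which the CaMKIIα promoter restricts recombination to forebrain neurons and starts once doxycycline is withdrawn. Control samples carry the same line name in their titles, and the sources used here do not state their exact genotype. Both groups had received doxycycline through embryonic life until the age of 2 months and were killed 4 weeks after its removal. Values are log2 expression values from RMA, so that a difference of 1 is a doubling. RMA makes the probe intensities of the arrays alike before it summarizes them per gene, so that a shift of the whole transcriptome would not be seen. The medians of the deposited arrays still differed, from 6.29 to 6.36.

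Calcium that enters a neuron is bound within moments by proteins with EF-hand motifs. Buffers such as calbindin, calretinin and parvalbumin take up calcium and thereby shape the height and duration of a calcium signal. Sensors of the hippocalcin, visinin-like and frequenin type change shape when calcium binds, and most of them then expose a fatty acid anchor and move to a membrane, where they act on channels, receptors, kinases and vesicle traffic. Calbindin is abundant in mature granule cells and their mossy fibers, whereas calretinin in the mouse DG marks immature granule cells, mossy cells and some interneurons, and parvalbumin marks fast-spiking basket cells.

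Bcl11b (probe set 10402554) had log2 levels of 9.03, 8.68 and 8.82 in mutants 1 to 3, against 10.56, 10.40 and 10.30 in controls 1 to 3. It was lower in every mutant array, with a log2 change of -1.58 (SE 0.099, limma adjusted p = 2.56e-05). No source used here tells whether its probes fall within the deleted exons. Prox1, the transcription factor that defines granule cells, stood at 11.60 ± 0.044 in mutants and 11.65 ± 0.19 in controls (SD, n = 3 each), with an adjusted p = 0.788 from limma. In all, 3023 genes passed the test (15.2% of the genes tested), 9.23% as higher and 5.93% as lower in mutants, which is 1840 higher and 1183 lower. With each array centred on its median over the 19938 genes tested, not over all probe sets, the split was 1423 higher and 1800 lower. Whether the arrays come from separate animals is not stated, and the p-values therefore rest on the spread between samples, which may be technical.

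Of the 9 genes, 4 changed in the granule cell layer of mutants. The sensors Hpcal1 and Hpcal4 were higher, and the buffer Calb1 and the sensor Ncs1 were lower. This is 44.4% of the set beside 15.2% of all genes tested, and the median log2 change of the 9 was -0.13 beside -0.0027 over all genes. The groups did not overlap for 7 of the 9 genes, as for 31.6% of all genes tested. With the methods' test and Benjamini-Hochberg adjustment in place of limma's, 2 of the 9 passed, Hpcal4 and Vsnl1. Of all 19938 genes tested 1141 passed that test.

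**Figure D1:**
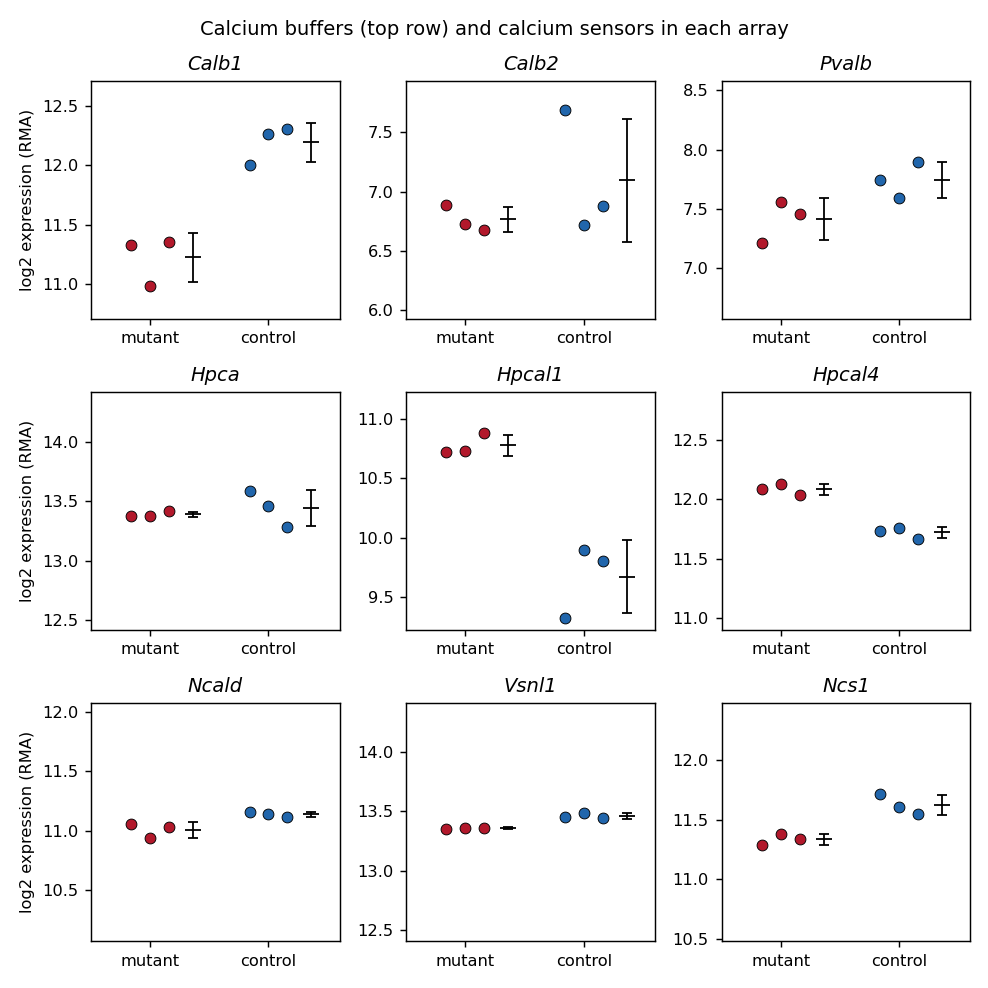
Log2 expression on the vertical axis of each calcium buffer and sensor in each array, with mutants (red) to the left of controls (blue). Dots are arrays in the order of their replicate number, black bars show mean and SD of 3 arrays, and every panel spans the same range of log2 units. Hpcal1 stands at 10.78 in mutants and 9.67 in controls and Calb1 at 11.23 in mutants and 12.19 in controls, while Vsnl1 is nearly level.

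Among the genes that changed, RefSeq promoters of GRCm38.p6 were at hand for Hpcal1 and Hpcal4, which rose, and Ncs1, which fell. They are shown because TGGGC has been described as a putative binding site of Bcl11b/Ctip2. Each sequence is the stretch of 250 bases before the transcription start, on the strand of the gene, with TGGGC or its reverse complement GCCCA in capitals. The windows are chr12:17690559-17690808 (plus strand) for Hpcal1, chr4:123183254-123183503 (plus strand) for Hpcal4 and chr2:31245673-31245922 (plus strand) for Ncs1.
Hpcal1: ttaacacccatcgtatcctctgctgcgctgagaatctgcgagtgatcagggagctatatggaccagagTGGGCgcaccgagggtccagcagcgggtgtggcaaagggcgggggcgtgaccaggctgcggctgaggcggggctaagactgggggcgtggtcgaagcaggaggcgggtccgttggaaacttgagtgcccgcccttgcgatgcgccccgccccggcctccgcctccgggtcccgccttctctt
Hpcal4: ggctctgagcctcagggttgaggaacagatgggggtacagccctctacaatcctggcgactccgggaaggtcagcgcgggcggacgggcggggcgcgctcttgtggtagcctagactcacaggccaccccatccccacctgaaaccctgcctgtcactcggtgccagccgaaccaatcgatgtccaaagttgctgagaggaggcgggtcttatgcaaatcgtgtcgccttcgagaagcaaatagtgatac
Ncs1: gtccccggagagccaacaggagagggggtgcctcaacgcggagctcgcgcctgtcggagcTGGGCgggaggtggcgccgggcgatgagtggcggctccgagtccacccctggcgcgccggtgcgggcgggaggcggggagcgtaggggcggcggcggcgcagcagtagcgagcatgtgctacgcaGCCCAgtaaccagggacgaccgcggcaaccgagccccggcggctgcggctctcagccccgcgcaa
The Hpcal1 window holds 1 match, which begins 182 bases before the start, and the Hpcal4 window holds none. The Ncs1 window holds 2, which begin 190 and 65 bases before the start, the nearer one as GCCCA. The annotated genes Hpcal1 and Ncs1 begin at 17690750 and 31245708, inside their windows, so the starts used lie within the genes. The Ncs1 matches therefore fall inside the annotated gene. Of all 32851 promoter windows of this length, 50.7% hold at least 1 match on either strand. Among genes tested here with a promoter entry, at least 1 match in any of their windows was found for 67.9% of 1462 higher genes, 63.9% of 925 lower genes and 56.5% of 13227 genes that did not pass, which is a description without a test. Of the set, 6 of 9 genes had a promoter entry, and Calb1, Calb2 and Ncald had none. Genes of the set that did not pass held matches too. Vsnl1 had 1 in each of its windows, Hpca 1 in a single window and Pvalb 2 in a single window. The other windows of Hpca and Pvalb held none.

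Calb1 (probe set 10503416), which encodes calbindin, the main calcium buffer of mature granule cells, had log2 levels of 11.33, 10.99 and 11.36 in mutants, against 12.01, 12.27 and 12.31 in controls. All mutant arrays lay below all control arrays, and the gap of 0.65 between the groups was wider than the range within either of them. The log2 change was -0.97 (SE 0.11, 95% interval -1.23 to -0.71, limma adjusted p = 0.000709), which leaves the mutants at 51.1% of the control level. Only 1.23% of all genes had a larger change in either direction. In tissue of this kind fewer cells of a type and less RNA per cell cannot be told apart. With the methods' test after adjustment Calb1 had an adjusted p = 0.0528.

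Markers of granule cell maturity were measured beside Calb1. Of 9 markers of mature granule cells 1 was higher (Tdo2, by 1.13 on the log2 scale) and 4 were lower, namely C1ql2 with a log2 change of -3.29, Trpc6 with -1.64, Dsp with -0.81 and Lct with -0.51. Prox1, Dock10, Maml2 and Plk5 did not pass, and the median log2 change of the list was -0.14. C1ql2 was singled out by the study on these samples. The study also names desmoplakin (Dsp) as a direct target of Bcl11b/Ctip2. Dsp is kept in every value of the list given here. Of 9 markers of immature granule cells 4 were higher and none lower, with a median of 0.061. Dcx, the microtubule-binding protein doublecortin, stood at 9.48, 9.40 and 9.43 in mutants, against 8.74, 8.17 and 8.18 in controls, a log2 change of 1.07 (adjusted p = 0.0011 from limma). Stmn1, Sox11 and Neurod1 had log2 changes of 0.44, 0.46 and 0.34. With the methods' test the calls on Dcx, Sox11, Dsp and Lct were lost (adjusted p from 0.0556 to 0.0726). The mean log2 level of the immature list was 8.64, 8.52 and 8.47 in mutants and 8.45, 8.16 and 8.25 in controls, and that of the mature list lay between 10.18 and 10.28 in mutants and between 10.77 and 10.82 in controls. Without C1ql2 the mature mean lay between 10.45 and 10.54 in mutants and between 10.69 and 10.73 in controls, a difference of -0.22 in place of -0.56, with a median log2 change of -0.098 over the 8 genes. The part of these cells in the level of Calb1 was not tested.

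Calb2 and Pvalb, buffers that in the mouse DG mark cells other than mature granule cells, did not pass the test. Calb2 (probe set 10581654), which encodes calretinin, had log2 levels of 6.89, 6.73 and 6.68 in mutants, against 7.68, 6.72 and 6.88 in controls. Control 1 alone stood high, and the other arrays of both groups overlapped. The log2 difference was -0.33 (SE 0.21, 95% interval -0.81 to 0.15, limma adjusted p = 0.376) and was -0.036 without control 1. Of 7 markers of mossy cells, which also hold calretinin, 2 were higher and none lower, and the mean log2 level of the list was 6.28 to 6.38 in mutants and 6.12 to 6.17 in controls, without overlap. Ociad2 had a log2 change of 0.54 (adjusted p = 0.0111 from limma) and Calcrl of 0.40 (adjusted p = 0.0272). With the methods' test both calls were lost (adjusted p = 0.137 for Ociad2 and 0.184 for Calcrl), and that on Calcrl also without mutant 1, mutant 2, mutant 3 or control 3 (adjusted p from 0.0613 to 0.106) and after renewed quantile normalization (0.053). Drd2, Csf2rb2, Tm4sf1 and Glipr1, further markers of the list, lay below the array medians and did not pass. Nmb, which did not pass either, stood at 6.68 in mutant 2 and below the array medians in the other arrays. Over the list 5 differences lay above 0 and 2 below, with a median of 0.038. Calretinin also marks immature granule cells, of whose 9 markers 4 were higher and none lower. The part of mossy cells and of immature granule cells in the level of Calb2 was not tested. Eomes, a marker of the precursors of granule cells, stood at 5.77 in mutants and 5.82 in controls.

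Pvalb (probe set 10430297), which encodes parvalbumin, had log2 levels of 7.22, 7.56 and 7.46 in mutants, against 7.74, 7.59 and 7.89 in controls. The groups did not overlap but came within 0.030 of each other. The log2 difference was -0.33 (SE 0.10, 95% interval -0.56 to -0.096), with an adjusted p = 0.0657 from limma. The adjusted p was 0.0352 with each array centred on its median, 0.0412 after renewed quantile normalization and 0.0492 when dim genes were left out. Of 15 markers of GABAergic interneurons 1 was higher and 2 were lower. Gad2, Slc32a1, Lhx6 and Sst, which mark inhibitory neurons in general or those born in the medial ganglionic eminence, had log2 differences of 0.058, 0.051, 0.064 and 0.12, none of which passed. Kit, Vip and Erbb4 had log2 differences of -0.12, -0.048 and -0.013 and did not pass either. Over the list 8 differences lay above 0 and 7 below, with a median of 0.0013. The mean log2 level of the list was 7.94, 8.03 and 7.93 in mutants and 7.87, 7.75 and 8.06 in controls. The markers that passed were the peptide genes Cck, with a log2 change of 1.56, and Npy, with -0.58, and the GABA-synthesizing enzyme Gad1, with -0.27, which granule cells also express. All these calls were lost with the methods' test (adjusted p = 0.137 for Cck, 0.136 for Npy and 0.0919 for Gad1). That on Npy was also lost without mutant 1 (0.0528), and that on Gad1 without mutant 1, mutant 3 or control 3 (highest adjusted p = 0.0826).

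Markers of further cells were measured on the same arrays. Of 9 markers of pyramidal cells of the cornu ammonis 1 was higher and 2 were lower, and the list mean was 6.55 to 6.71 in mutants and 6.73 to 6.83 in controls, without overlap. The median log2 change of that list was -0.12, with 3 differences above 0 and 6 below. Fibcd1 stood at 6.96 in mutants and 7.91 in controls, a log2 change of -0.94 (adjusted p = 0.00037 from limma). Iyd had a log2 change of -0.40, with levels of 5.11 in mutants and 5.51 in controls that lie below the array medians. Wfs1 stood at 9.30 in mutants and 8.90 in controls, a log2 change of 0.40 (adjusted p = 0.00654 from limma). The defining pyramidal cell marker Neurod6 stood at 5.04 in mutants and 4.99 in controls, below the array medians. Of 7 astrocyte markers 2 were higher, Slc1a2 by 0.32 and Gfap by 0.54 on the log2 scale, and of 7 microglia markers 1 was lower, Tmem119 with a log2 change of -0.32. All 7 astrocyte differences lay above 0, with a median of 0.103, and all 7 microglia differences lay below 0, with a median of -0.26. The list means of astrocytes (9.52 to 9.72 in mutants, 9.23 to 9.56 in controls) overlapped, and so did those of microglia (6.65 to 6.75 in mutants, 6.72 to 7.12 in controls). Of 6 endothelial markers 1 was higher, Flt1 by 0.44. None of 7 oligodendrocyte markers passed with limma, where 2 had an unadjusted p below 0.05, and 0 passed with the methods' test. With the methods' test only Fibcd1 of these called markers passed. The call on Gfap was also lost without control 2, that on Iyd without mutant 1, mutant 3, control 2 or control 3 and that on Flt1 without mutant 2, mutant 3 or control 3. Centring on array medians and renewed quantile normalization also ended the call on Flt1 (adjusted p = 0.0528 and 0.0688). The part of these cells in the levels of the 9 genes was not tested.

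**Figure D2:**
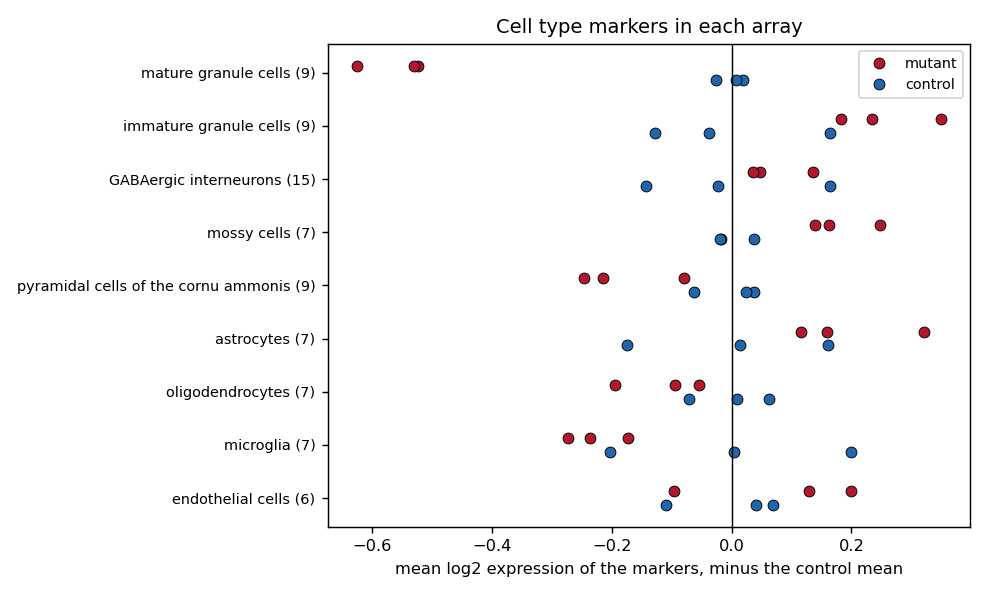
Mean log2 expression of the markers of each cell type in each array on the horizontal axis, minus the mean of the controls, with mutants (red) above controls (blue) and the number of markers in brackets. Mutants and controls do not overlap for markers of mature granule cells (-0.56 between the group means, or -0.22 without C1ql2), immature granule cells (0.26), mossy cells (0.18) and pyramidal cells (-0.18), and they overlap for the other lists. A mean can rest on a single gene, and the median log2 changes of these lists were -0.14, 0.061, 0.038 and -0.12. Dcx, Ociad2 and Fibcd1 had the largest changes of the immature, mossy and pyramidal lists. Whether those means stay apart without them was not tested.

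Hpcal1 had the largest change of the 9 genes and Hpcal4 the next largest among the sensors, and both were higher in mutants. Hpcal1 (probe set 10394778), which encodes a hippocalcin-like sensor of the visinin-like proteins, had log2 levels of 10.72, 10.73 and 10.88 in mutants, against 9.32, 9.89 and 9.80 in controls. The lowest mutant array exceeded the highest control array by 0.83, and the controls were spread more widely than the mutants, with control 1 the lowest. The log2 change was 1.10 (SE 0.13, 95% interval 0.80 to 1.41, limma adjusted p = 0.000807), a level 2.15 times that of controls. A larger change in either direction was found for 0.868% of all genes. The adjusted p was 0.0578 with the methods' test. It changed by 0.93 to 1.21 when any 1 array was left out, and passed each time.

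Hpcal4 (probe set 10507826), a further visinin-like sensor of the brain, had log2 levels of 12.08, 12.13 and 12.04 in mutants, against 11.73, 11.76 and 11.67 in controls. The arrays of each group lay within 0.091 of each other, and the groups were 0.28 apart. The log2 change was 0.36 (SE 0.054, 95% interval 0.24 to 0.49, limma adjusted p = 0.00246), a level 1.29 times that of controls. Hpcal4 passed under every alternative tried, with an adjusted p of at most 0.031.

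Hpca, Ncald and Vsnl1, the closest relatives of Hpcal1 and Hpcal4 in the set, did not pass. Hpca (probe set 10516544) encodes hippocalcin, which is enriched in hippocampal neurons and takes part in the slow afterhyperpolarization. Its log2 levels were 13.38, 13.38 and 13.42 in mutants, against 13.59, 13.46 and 13.29 in controls, so that the mutants lay inside the range of the controls. The log2 difference was -0.055 (95% interval -0.23 to 0.12, adjusted p = 0.723 from limma) and turned to 0.016 without control 1. The interval does not reach the log2 change of 0.36 found for Hpcal4.

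Ncald (probe set 10428222), which encodes neurocalcin delta, a sensor that binds clathrin and bears on endocytosis, had log2 levels of 11.06, 10.94 and 11.03 in mutants, against 11.15, 11.14 and 11.12 in controls. All mutant arrays were lower, by a gap of 0.056. The log2 difference was -0.13 (95% interval -0.25 to -0.0043), and the adjusted p of 0.169 from limma did not pass. Vsnl1 (probe set 10399407), visinin-like protein, which acts on receptor and guanylyl cyclase traffic, had log2 levels of 13.35, 13.36 and 13.36 in mutants, against 13.45, 13.49 and 13.44 in controls. The mutants lay within 0.013 of each other and below all controls. The log2 difference was -0.10 (95% interval -0.21 to 0.011, adjusted p = 0.231 from limma, and 0.0471 with the methods' test), or 93.2% of the control level.

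Ncs1 (probe set 10471129), the mammalian frequenin, binds phosphatidylinositol 4-kinase beta and dopamine receptors and facilitates transmitter release. Its log2 levels were 11.28, 11.38 and 11.34 in mutants, against 11.72, 11.61 and 11.55 in controls. Every mutant array was lower than every control array, with a gap of 0.17. The log2 change was -0.29 (SE 0.061, 95% interval -0.43 to -0.15, limma adjusted p = 0.0128), which is 81.7% of the control level. The call was lost without mutant 1 (adjusted p = 0.062 from limma) and with the methods' test (adjusted p = 0.0733).

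**Figure D3:**
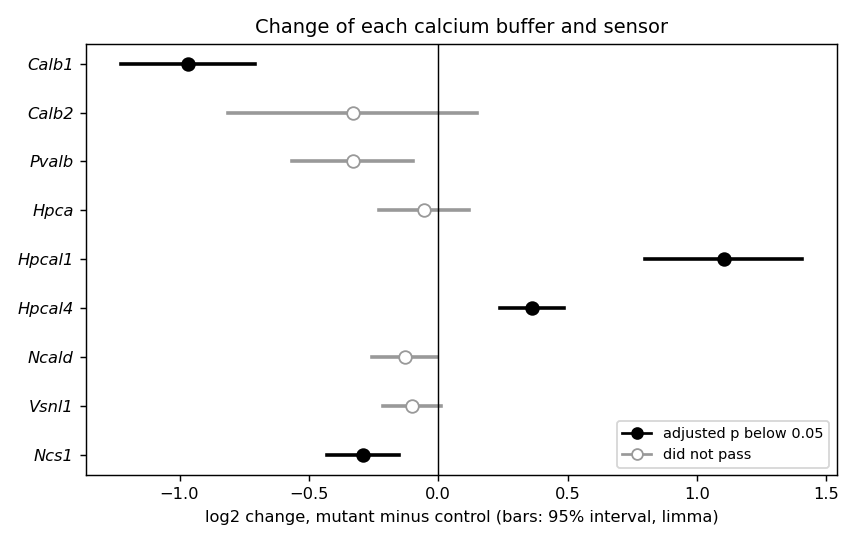
Log2 change of each gene on the horizontal axis, mutant minus control, with its 95% interval from limma (n = 3 per group). Filled black points passed the test at an adjusted p below 0.05, and open grey points did not. Hpcal1 at 1.10 and Calb1 at -0.97 lie farthest from 0, to opposite sides.

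Several of these sensors are close in sequence. Besides the probe set used, 2 further probe sets of the array list Hpcal1 together with other genes and were left out. Whether probes of one sensor also bind transcripts of another was not tested.

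Other genes of calcium binding and handling were compared as 8 lists, which hold 78 genes, of which 74 were tested. Of these, 4 were higher and 8 lower (16.2%, beside 15.2% of all genes tested), with a median log2 change of 0.000604. The largest change was that of Cabp7, a calneuron of the Golgi that in mammalian neurons restrains the same phosphatidylinositol 4-kinase that Ncs1 stimulates. Its log2 levels were 8.49, 8.32 and 8.50 in mutants, against 10.61, 10.33 and 9.94 in controls. The groups were far apart, with a log2 change of -1.86 (SE 0.15, limma adjusted p = 8.55e-05), or 27.6% of the control level. Its relative Caln1 stood at 10.30, 10.14 and 10.36 in mutants, against 10.10, 9.80 and 9.74 in controls, a log2 change of 0.39 (adjusted p = 0.0311 from limma). The call on Caln1 was lost without mutant 1, mutant 3, control 2 or control 3 (adjusted p from 0.0844 to 0.122) and with the methods' test (0.194). Cabp1, Cabp2, Cabp4 and Cabp5, which regulate calcium channels in brain and retina, had log2 differences between -0.10 and 0.067 and did not pass.

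The Kv channel-interacting proteins are neuronal calcium sensors that join the channels of A-type potassium current. With recoverin and a guanylyl cyclase activator they make up 6 further sensors tested, of which 1 was lower and none higher. Kcnip1, a form found mainly in interneurons, stood at 6.90 to 7.11 in mutants, against 7.26 to 7.43 in controls, a log2 change of -0.32 (adjusted p = 0.0182 from limma). The call was lost without mutant 1 (adjusted p = 0.0692), without mutant 3 (0.077) and with the methods' test (0.122). Kcnip2, Kcnip3 and Kcnip4 had log2 differences of 0.19, -0.16 and 0.13, with adjusted p from 0.0547 to 0.531 by limma.

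Of 15 other EF-hand proteins 1 was higher and 3 were lower. Necab3 stood at 9.80, 9.83 and 9.91 in mutants, against 9.27, 8.77 and 8.57 in controls, a log2 change of 0.98 (SE 0.15, limma adjusted p = 0.00295). Its relative Necab1 had a log2 change of -0.40 and Efhd2, an actin-binding protein also called swiprosin, of -0.46. Scgn, which encodes the sensor secretagogin, had a log2 change of -0.69, with levels of 4.82 in mutants and 5.51 in controls that lie below the array medians, so that the size of the change is not exact. All these calls were lost with the methods' test (adjusted p = 0.094 for Necab3, 0.186 for Necab1, 0.0516 for Efhd2 and 0.106 for Scgn), and that on Necab1 also without control 2 or any 1 mutant (highest adjusted p = 0.0978). None of the 8 S100 proteins, small EF-hand proteins that include the astrocytic S100b, passed the test with limma, where 2 had an unadjusted p below 0.05, and 1 passed with the methods' test after adjustment.

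Calmodulin, the common calcium sensor of all cells, is encoded by several genes, of which Calm2 and Calm3 were measured here. Calm2 stood at 13.31, 13.24 and 13.21 in mutants, against 13.24, 13.20 and 13.26 in controls, and Calm3 had a log2 difference of 0.094. Neither passed the test. Of 9 calmodulins and small calmodulin-binding proteins tested, 2 were higher, 1 was lower and 6 did not pass, among them Nrgn, Gap43, Pcp4l1 and Calml4. The 2 higher ones were the inhibitors of calmodulin-dependent kinase II. Camk2n2 stood at 9.33, 9.46 and 9.46 in mutants, against 8.07, 8.15 and 8.35 in controls, a log2 change of 1.23 (SE 0.080, limma adjusted p = 3.09e-05), or 2.34 times the control level. Camk2n1 had a log2 change of 0.35 (adjusted p = 0.00373 from limma). Pcp4, a small protein that speeds the exchange of calcium on calmodulin, had a log2 change of -0.30 (adjusted p = 0.00384 from limma), with 12.78 to 12.81 in mutants and 13.08 to 13.12 in controls.

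Proteins that store calcium in the secretory pathway and pumps that clear it from the cytosol did not pass the test. None of 13 such buffers passed, where 3 had an unadjusted p below 0.05 by limma and Rcn2, with a log2 difference of 0.18 and an adjusted p = 0.0516, came nearest. Calreticulin (Calr) and calnexin (Canx) had log2 differences of -0.037 and 0.027. None of 8 pumps passed, where Atp2a2, the pump of the endoplasmic reticulum in neurons, had an unadjusted p = 0.0171, a log2 difference of 0.17 and an adjusted p = 0.0886 from limma. The pumps of the plasma membrane Atp2b1, Atp2b2 and Atp2b3 had log2 differences of -0.11, 0.021 and 0.13. With the methods' test after adjustment 0 of the 13 buffers and 0 of the 8 pumps passed.

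**Figure D4:**
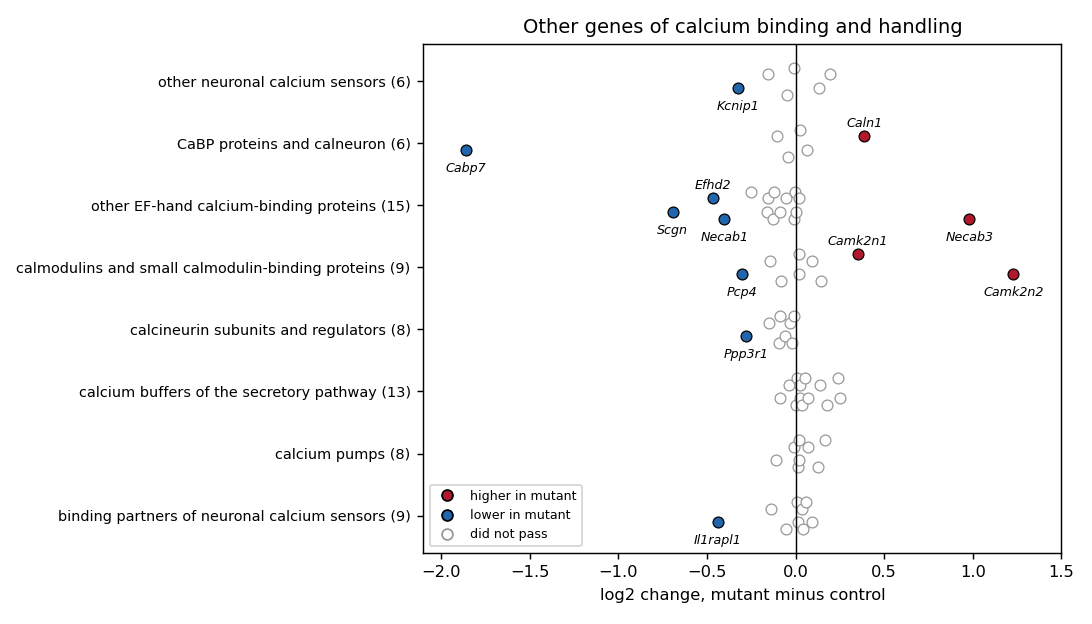
Log2 change of the other genes of calcium binding and handling on the horizontal axis, mutant minus control, with 1 row per list and the number of genes tested in brackets. Filled points passed the test (red higher, blue lower in mutants) and are named, and open points did not. Cabp7 at -1.86 and Camk2n2 at 1.23 stand out, and no secretory pathway buffer or pump passed.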

How the data were processed

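Expression was measured on 1-colour Affymetrix whole-transcript mouse gene arrays in 3 mutant and 3 control samples. The deposited values are on the log2 scale and were produced by the authors with RMA and Affymetrix Expression Console, per the submitters' processing notes, whose versions and settings are not stated in the sources used here. The table holds no detection calls, so low levels do not tell an absent transcript from a scarce one, and 3 arrays per group set the precision.

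The platform annotation pairs 21789 of 35556 probe sets with 1 gene, 1621 with several and 12146 with none. Each of 19938 genes was represented by its probe set of highest mean over the 6 arrays, and no level filter was used. Mutants were tested against controls by limma (version 3.58.1, R 4.3.3; lmFit, eBayes), two-sided and without covariates. P-values were adjusted by Benjamini-Hochberg over the 19938 genes, and 0.05 was the threshold. The fit was first tested on simulated data. With 3 arrays per group, 0.1 is the smallest p an exact permutation test allows. The methods state that the arrays were analysed in BRB-ArrayTools and that groups were compared by an unpaired two-tailed test. That test, called the methods' test here, was run on the same values with Benjamini-Hochberg adjustment. The methods name it for comparisons of groups in general, not for the arrays, and the adjustment was added here. It is therefore not the criterion by which the authors called genes.

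The genes of the set and the lists were chosen with earlier results of these data known. The 8 lists of calcium genes and 9 lists of cell type markers come from general knowledge, and 7 of their 156 genes were not analysed here. Named were the set, Bcl11b, up to 3 changed genes with the smallest p in each calcium list (1 more where those moved one way) and up to 2 in each marker list. All other list genes in the text were named after their values were seen. Promoter sequences are those of RefSeq for GRCm38.p6, of which the part before the start was used.

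Deviations from the group mean correlated at 0.164, -0.0328 and 0.118 between arrays of the same number, and no source tells what the number stands for, so no pairing was assumed. No source gives a batch. The first principal component (70.4% of the variance) placed mutants at 18.4 to 18.6 and controls at -20.4 to -15.8. The second (14.5%) placed control 1 at 16.3 and the remaining arrays at -11.8 to 1.85.

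Results were recomputed with the methods' test, with limma's trend and robust options, with weighted arrays and with only genes whose mean log2 level reached 7.06. Further alternatives averaged the probe sets of each gene, tested each probe set separately or repeated the quantile normalization over the genes tested. Others centred arrays on their medians over the genes tested, added the replicate number as a block or omitted 1 array at a time.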

Additional observations from a re-analysis of the deposited data

How the results depend on the processing

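The number of genes of the set that changed was 4 with limma, 2 with the methods' test after adjustment and between 3 and 4 when any 1 array was left out. With a filter on dim genes, renewed quantile normalization or centring on array medians it was 5, where Pvalb passed too. The count over all genes in these settings was 2749 among the genes the filter kept, 3173 after renewed quantile normalization and 3223 with centring. The filter removed Calb2. Hpcal4 passed under all alternatives, and Calb1 and Hpcal1 under all but the methods' test. Ncs1 did not pass with the methods' test and without mutant 1. The log2 difference of Hpca lay between -0.13 and 0.016 when 1 array was left out, above 0 only without control 1, and no other direction among the 9 genes turned in those fits. Over all genes the count of 3023 was 1141 with the methods' test and 5527 with array weights. It was between 1886 and 4487 when 1 array was left out, with 1886, 1954 and 1949 without mutants 1, 2 and 3 and 1931 without control 2. Array weights gave control 2 a weight of 3.06 and control 1 of 0.373. Over the calcium lists the count of 12 was 20 with array weights and between 8 and 14 when 1 array was left out. The highest of these counts, 4487 of all genes and 14 of the calcium lists, were those without control 1. Leaving out an array also leaves fewer samples, and the cause of these differences was not tested. With the replicate number as a block the counts were 4 of the set, 12 of the calcium lists and 3176 of all genes, and no call on the 9 genes changed. The call on Il1rapl1 was lost with the methods' test (adjusted p = 0.181) and in 5 of 6 fits without 1 array. Calb2 and Scgn lie near or below the array medians, which limits their values.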

Other observations

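Calcineurin, the calcium- and calmodulin-dependent phosphatase, and proteins that bind neuronal calcium sensors were measured on the same arrays. Of 8 calcineurin subunits and regulators 1 was lower and none higher with limma, and 2 passed with the methods' test after adjustment. Ppp3r1, the calcium-binding regulatory subunit of calcineurin, stood at 12.04, 11.95 and 12.04 in mutants, against 12.24, 12.28 and 12.35 in controls, a log2 change of -0.28 (SE 0.056, limma adjusted p = 0.0104). The catalytic subunits Ppp3ca, Ppp3cb and Ppp3cc had log2 differences of -0.15, -0.087 and -0.021 and did not pass with limma. Rcan1, a calcineurin inhibitor, had a log2 difference of -0.010.

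Of 9 binding partners of neuronal calcium sensors 1 was lower and none higher. Il1rapl1, a synaptic adhesion protein that binds Ncs1, stood at 8.08 ± 0.078 in mutants and 8.52 ± 0.23 in controls (SD, n = 3 each), a log2 change of -0.44 (SE 0.11, limma adjusted p = 0.0241). Pi4kb, the lipid kinase on which Ncs1 and the calneurons act, had a log2 difference of -0.14 (adjusted p = 0.0974 from limma). The potassium channel subunits Kcnd2 and Kcnd3, partners of the Kv channel-interacting proteins, had log2 differences of 0.0071 and 0.015, and neither passed.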
